A study of Mus musculus with 14 samples.

Results

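Foxo1, Foxo3 and Foxo4, which encode forkhead transcription factors, were followed together with Sirt1 and 6 genes known as FOXO targets (Fbxo32, Trim63, Bnip3, Txnip, Sesn1 and Gabarapl1) in mice lacking Fhl2. The 10 genes were chosen by symbol because the FHL2 protein is a known partner of FOXO1 and SIRT1. The choice was made with earlier results of these data known, so counts and medians over the 10 genes are descriptions. All 10 were found among the 33459 gene IDs of the deposited count table. The groups were hearts of Fhl2 knockout (KO, labelled FHL2-/-) mice (n = 4) and wild-type (WT) mice (n = 4), and gonadal white adipose tissue (gWAT) of KO mice (n = 3) and WT mice (n = 3). Every group was of the C57BL/6 strain, aged 21 weeks, and was fed a high fat diet during 8 weeks. FHL2 is a LIM-domain adaptor protein that is abundant in heart muscle. The labels do not describe how the allele was made or which exons it lacks, nor whether each library came from its own animal, and p-values therefore describe variation among libraries, which may be technical.

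FOXO factors switch on genes of fasting, protein breakdown, autophagy and stress resistance. Insulin signalling through the kinase AKT phosphorylates them, and 14-3-3 proteins then hold them in the cytoplasm, so that they no longer activate their targets. SIRT1, a NAD-dependent deacetylase, removes acetyl groups from FOXO proteins, and in human prostate cancer cells FHL2 was described as bringing FOXO1 and SIRT1 together. Messenger RNA was measured here, so the phosphorylation, acetylation and location of the proteins were not.

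Of the 10 genes, 8 had a promoter window in the RefSeq table used (build GRCm38.p6, 300 bases from 250 before to 50 after a gene's start). Foxo4 and Fbxo32 were not among them. The windows were searched on both strands for TGTTTAC, a core form of the forkhead binding motif (GTAAACA on the other strand), which stood in 3.65% of all 32851 windows of the same length. Trim63, Txnip and Sesn1 held it, and their sequences are shown since they are the places where these letters occur near the targets. The capitals mark the motif, and each sequence reads along the plus strand of the chromosome, which is also the strand of the 3 genes. For Trim63 and Txnip the 250 bases before the start are given, at chr4:134314870-134315119 and chr3:96557707-96557956, and for the first of the 2 Sesn1 starts in that table a stretch of 30 bases after it, at chr10:41810585-41810614.
Trim63: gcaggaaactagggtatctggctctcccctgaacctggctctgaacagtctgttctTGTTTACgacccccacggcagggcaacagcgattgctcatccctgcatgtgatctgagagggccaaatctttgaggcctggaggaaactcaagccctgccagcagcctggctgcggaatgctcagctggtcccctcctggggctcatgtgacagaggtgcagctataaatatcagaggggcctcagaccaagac
Txnip: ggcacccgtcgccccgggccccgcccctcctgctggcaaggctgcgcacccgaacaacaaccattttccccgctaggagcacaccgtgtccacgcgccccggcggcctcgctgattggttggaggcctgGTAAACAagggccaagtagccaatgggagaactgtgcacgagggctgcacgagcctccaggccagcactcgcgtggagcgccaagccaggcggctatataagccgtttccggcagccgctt
Sesn1: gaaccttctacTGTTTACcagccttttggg
In Trim63 the motif began 194 bases before the start, in Txnip it lay on the minus strand with its outermost base 121 bases before the start, and in Sesn1 it began at base 23 after the start. The windows of Foxo1, Foxo3, Sirt1, Bnip3 and Gabarapl1 did not hold these letters. A match is a description of the sequence and was not tested as a binding site.

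Values are deposited read counts. A level in CPM (counts per library size, on the usual CPM scale) was computed after scaling the libraries of that tissue to each other, and fold changes are given as log2(KO/WT) ± the standard error (SE). Fold changes and p-values are from the edgeR quasi-likelihood test within each tissue, adjusted by Benjamini-Hochberg over all genes tested, with a threshold of 0.05. Libraries held 10835092 to 13272412 counts in heart and 15105019 to 16040188 in gWAT. Fhl2 itself fell in both tissues: KO hearts held 325 to 477 reads against 13962 to 16463 in WT hearts (log2 fold change −5.14 ± 0.14, edgeR adjusted p = 1.99e-08), and KO gWAT held 4 to 7 reads against 63 to 100 in WT gWAT (−3.78 ± 0.31, edgeR adjusted p = 0.0101). In heart libraries the summed level of 5 cardiomyocyte markers was 28286 to 32994 CPM in KO and 28238 to 31963 CPM in WT. In gWAT libraries the summed level of 6 white adipocyte markers was 15184 to 15815 CPM in KO and 9608 to 16483 CPM in WT.

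Libraries stood apart within both tissues. The summed level of 6 atrial markers was 4093, 4483, 553 and 937 CPM in KO hearts 1 to 4. In WT hearts 1 to 4 it was 3835, 3195, 137 and 165 CPM. These sums were thus high in numbers 1 and 2 and low in 3 and 4 in both genotypes. Of the 6 genes, Myh7b did not follow this split (27.5 to 46.6 CPM in WT hearts and 27.7 to 49.4 CPM in KO hearts). Bmp10 was at 3.14 CPM in WT heart 2, below 14.1 CPM in WT heart 4. In gWAT the summed level of 6 markers of lipid-associated macrophages, the macrophages that gather in obese fat, was 337, 351 and 403 CPM in KO samples 1, 3 and 4, against 743, 4347 and 2998 CPM in WT samples 1, 3 and 4. WT gWAT 1 was therefore nearer to the KO samples than to the other WT samples in these markers. Of the 6 markers 5 were lower in KO by the edgeR test, as were 3 of 6 general macrophage markers (1 was higher) and 4 of 4 cell division genes, while 2 of 6 white adipocyte and 3 of 4 mesothelial markers were higher. In heart no marker of any list passed. These samples are whole tissue, in which fewer cells of a type and less RNA per cell cannot be told apart.

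In gWAT, Txnip was higher in KO mice and was the 1 called gene among the 9 that could be tested. It encodes thioredoxin-interacting protein, which binds thioredoxin and restrains glucose uptake. Over all genes tested, 5.49% were called in gWAT, 2.01% as higher. The members' median log2 fold change was 0.23, beside a median of 9.32e-05 over all 15200 genes, and 8 of the 9 lay above 0, beside 50.0% of all genes. At an unadjusted p under 0.05 there were 2 of the 9 (Txnip and Foxo4), beside 23.1% of all genes.

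Txnip, on chromosome 3 (chr3:96557957-96561883, plus strand, 6 exonic blocks), stood at 1575, 1526 and 1802 CPM in KO gWAT samples, against 1051, 1095 and 888 CPM in WT gWAT samples. Every KO sample lay above every WT sample. The means were 1634 ± 147 CPM in KO and 1011 ± 109 CPM in WT (SD, n = 3 each), a 1.62-fold difference or a log2 fold change of 0.69 ± 0.15 (95% interval 0.35 to 1.03, edgeR adjusted p = 0.0380). Gm15441, an antisense gene whose exons overlap those of Txnip, had at most 0.293% of the reads of Txnip in any library. The call was sensitive to single libraries: it held without WT gWAT 1 (log2 fold change 0.72, edgeR adjusted p = 0.00831) and was lost without each of the other 5. Over all genes, edgeR then called 132 of 15434 without WT gWAT 3 and 0 without each of the rest. The loss was therefore not particular to Txnip. Those 5 fits gave log2 fold changes of 0.61 to 0.75 and edgeR adjusted p of 0.0613 to 0.196, and their unadjusted p was at most 0.0129. The lipid-associated macrophage sums of KO (337 to 403 CPM) lay below those of WT (743 to 4347 CPM). The white adipocyte sums of KO and WT overlapped. The mean of log2(CPM + 0.5) over the same adipocyte markers did not overlap, at 11.06 to 11.20 in KO and 9.96 to 10.83 in WT. The part of these cell types in the Txnip difference was not tested.

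**Figure D1:**
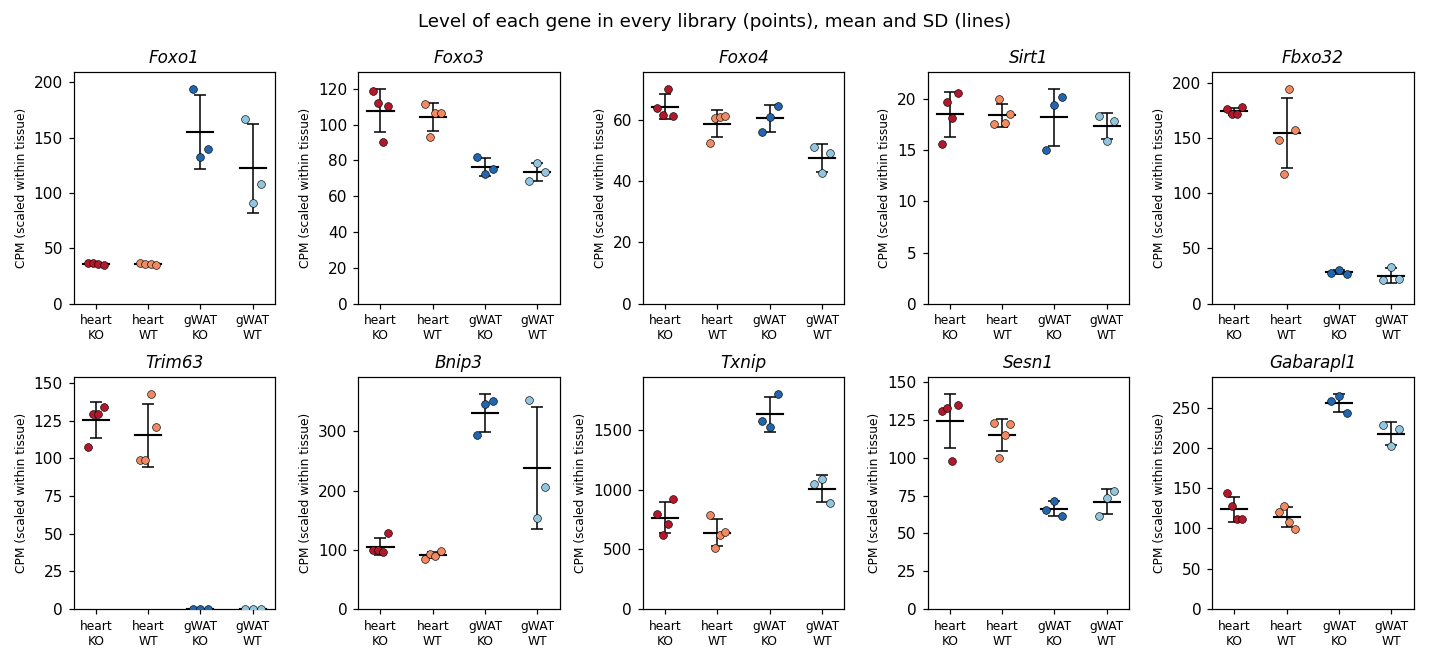
Level of each of the 10 genes in CPM (vertical axes, from 0, libraries scaled within each tissue), with 1 point per library and lines for the mean and SD, in hearts of KO (n = 4) and WT (n = 4) and gWAT of KO (n = 3) and WT (n = 3). The Txnip points of KO gWAT (1526 to 1802 CPM) lie above those of WT gWAT (888 to 1095 CPM), and Trim63 lies near 0 in gWAT.

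The 3 FOXO genes did not pass the test in gWAT. Foxo4, an X-linked gene (chrX:101254528-101260873, plus strand), stood at 55.9, 60.8 and 64.5 CPM in KO samples, against 50.9, 42.5 and 49.1 CPM in WT samples. Its groups did not overlap, and the log2 fold change was 0.35 ± 0.11 (95% interval 0.09 to 0.60, unadjusted p = 0.0130, edgeR adjusted p = 0.105). Groups that do not overlap with KO higher were seen for 13.3% of all genes in gWAT, and for 3 of the members here (Foxo4, Txnip and Gabarapl1).

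Foxo1 (chr3:52268336-52353221, plus strand), the FOXO factor best known for its part in insulin action and in fat cell differentiation, stood at 194, 133 and 139.9 CPM in KO gWAT samples, against 167, 91.3 and 108 CPM in WT gWAT samples. The groups overlapped, because WT sample 1 lay above 2 of the 3 KO samples. The log2 fold change was 0.35 ± 0.24 (95% interval −0.20 to 0.89, edgeR adjusted p = 0.424). Foxo3 (chr10:42181841-42276755, minus strand), studied for its part in autophagy and muscle loss, stood at 81.9, 72.4 and 75.1 CPM in KO samples, against 68.6, 78.6 and 73.5 CPM in WT samples, with overlapping groups and a log2 fold change of 0.06 ± 0.10 (95% interval −0.17 to 0.29, edgeR adjusted p = 0.782).

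Sirt1 (chr10:63319005-63381704, minus strand) was the least abundant of the 9 tested genes per kilobase of exon in gWAT. It stood at 15.1, 19.4 and 20.2 CPM in KO samples, against 18.3, 15.9 and 17.9 CPM in WT samples. The WT samples lay within the range of the KO samples, and the log2 fold change was 0.07 ± 0.14 (95% interval −0.26 to 0.40, edgeR adjusted p = 0.814).

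Bnip3 and Gabarapl1 belong to the autophagy arm of the FOXO targets. Bnip3 (chr7:138890836-138909519, minus strand) encodes a mitochondrial receptor for mitophagy and stood at 294, 346 and 352 CPM in KO gWAT samples, against 353, 154 and 206 CPM in WT gWAT samples. WT sample 1 lay above all KO samples while the other 2 WT samples lay below them, and the log2 fold change was 0.48 ± 0.27 (95% interval −0.14 to 1.10, edgeR adjusted p = 0.335). Gabarapl1 (chr6:129533160-129542346, plus strand) encodes an ATG8-family protein of the autophagosome membrane and stood at 259, 264 and 243 CPM in KO samples, against 228, 202 and 223 CPM in WT samples. Its groups did not overlap, and the log2 fold change was 0.23 ± 0.10 (95% interval −0.01 to 0.47, edgeR adjusted p = 0.232).

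The remaining targets in gWAT were Sesn1, Fbxo32 and Trim63. Sesn1 (chr10:41809935-41908424, plus strand), a sestrin that restrains mTORC1, stood at 65.6, 71.4 and 61.7 CPM in KO samples, against 61.6, 73.1 and 77.9 CPM in WT samples, a log2 fold change of −0.10 ± 0.12 (edgeR adjusted p = 0.663). It was the 1 tested member with a value below 0. Fbxo32 (chr15:58175879-58214932, minus strand), the ubiquitin ligase subunit atrogin-1, stood at 27.7, 30.6 and 27.2 CPM in KO samples, against 21.5, 33.2 and 22.01 CPM in WT samples, a log2 fold change of 0.16 ± 0.18 (edgeR adjusted p = 0.639). Both sets of groups overlapped. Trim63 (chr4:134315120-134329629, plus strand), the muscle ubiquitin ligase MuRF1, was not tested in gWAT, where it had 1, 0 and 1 reads in KO samples and 1, 0 and 0 reads in WT samples.

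Leaving out WT gWAT 1 changed the size of several differences. Without it, 4 of the 9 tested members were called as higher in KO by edgeR, beside 1 with all libraries: Txnip, Bnip3 (log2 fold change 0.88, adjusted p = 0.00452), Foxo1 (0.64, adjusted p = 0.0345) and Foxo4 (0.40, adjusted p = 0.0414). The number of all genes called then was 2908, against 834 with all libraries. Its summed white adipocyte marker level was 16483 CPM, above the KO range of 15184 to 15815 CPM, while WT samples 3 and 4 had 9608 and 12488 CPM. Lep and Cidec lifted that sum, at 6451 and 4681 CPM, against 2827 to 4355 and 3509 to 4490 CPM in KO. Adipoq, Plin1, Cfd and Retn were lower in WT gWAT 1 than in every KO sample. The mean of log2(CPM + 0.5) over the adipocyte markers was also lower, at 10.83 against 11.06 to 11.20 in KO. Its macrophage marker sum was 1173 CPM, beside 923 to 1071 CPM in KO and 2721 and 2138 CPM in WT samples 3 and 4. The part of these cell types in the values of Foxo1 and Bnip3 was not tested.

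**Figure D2:**
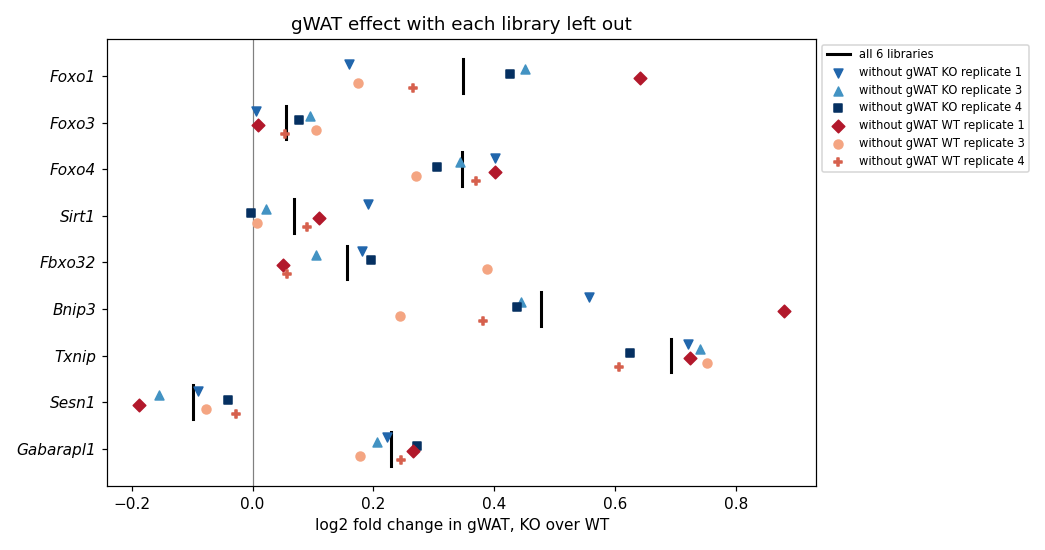
Log2 fold change of KO over WT in gWAT (horizontal axis) for the 9 tested genes, with all 6 libraries (black bars) and with each library left out (symbols). Without WT replicate 1 (diamonds) Bnip3 moves to 0.88 and Foxo1 to 0.64, while Txnip stays between 0.61 and 0.75 in all fits.

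In heart, none of the 10 genes differed past the threshold between KO and WT mice. All 10 fold changes lay above 0, between 0.0053 for Sirt1 and 0.26 for Txnip, beside 49.0% of all genes, and their median was 0.12 beside −0.00302 over all 14159 genes. Only Fhl2 was called in heart, which is 0.00706% of the genes tested, and the edgeR adjusted p of every member was 0.9997. No member had an unadjusted p under 0.05, beside 3.20% of all genes. DESeq2 and limma-voom also called 0 members, with 1 and 0 at an unadjusted p under 0.05.

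Among the factors, Foxo1 stood at 36.7, 36.8, 35.9 and 35.3 CPM in KO hearts, against 36.6, 35.6, 35.7 and 35.0 CPM in WT hearts. The 8 values lay close together, and the 95% interval of its log2 fold change, −0.11 to 0.15 around 0.02 ± 0.06, was the narrowest among the 10 genes. Foxo4 stood at 63.8, 61.4, 70.0 and 61.3 CPM in KO hearts, against 52.3, 60.5, 60.9 and 61.2 CPM in WT hearts. It was the 1 member whose heart groups did not overlap, as for 1.24% of all genes with KO higher, but the lowest KO value lay just above the highest WT value and the log2 fold change of 0.13 ± 0.08 (95% interval −0.04 to 0.30) did not pass the edgeR test. Foxo3 stood at 90.5 to 119 CPM in KO hearts and at 93.1 to 111 CPM in WT hearts (log2 fold change 0.05 ± 0.09). Sirt1 stood at 15.6 to 20.6 CPM in KO hearts and at 17.5 to 19.96 CPM in WT hearts (log2 fold change 0.01 ± 0.10).

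The ubiquitin ligase genes Fbxo32 and Trim63, by which FOXO factors drive muscle protein breakdown, were well expressed in heart. Fbxo32 stood at 176, 171, 171 and 178 CPM in KO hearts, against 148, 117, 194 and 157 CPM in WT hearts (log2 fold change 0.17 ± 0.13, 95% interval −0.10 to 0.45). The KO values lay close together, and the WT values spread to both sides of them. Trim63 stood at 108, 129, 129.7 and 134 CPM in KO hearts, against 98.7, 98.7, 142 and 121 CPM in WT hearts (log2 fold change 0.12 ± 0.12, 95% interval −0.15 to 0.39). Both genes were lowest in WT hearts 1 and 2, the WT hearts with high atrial marker levels. KO hearts 1 and 2 also had high atrial levels, but Fbxo32 was at 176 and 171 CPM there, beside 171 and 178 CPM in KO hearts 3 and 4. Trim63 was lowest in KO heart 1 (108 CPM), while KO heart 2 (129 CPM) was close to KO heart 3 (129.7 CPM). The covariate fit used a single slope for both genotypes. With the mean atrial level as a covariate, the log2 fold changes were 0.32 for Fbxo32 (unadjusted p = 0.0119, edgeR adjusted p = 0.387) and 0.30 for Trim63 (unadjusted p = 0.00458, edgeR adjusted p = 0.289), with 0 of 10 members called. In that fit Foxo4 was at 0.19 (unadjusted p = 0.0366), Bnip3 at 0.25 (unadjusted p = 0.0290) and Gabarapl1 at 0.0062 (unadjusted p = 0.946), and 1195 of 14159 genes had an unadjusted p under 0.05, beside 453 without the covariate.

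Of the other targets in heart, Txnip stood at 801, 625, 710.4 and 926 CPM in KO samples, against 785, 509, 622 and 643 CPM in WT samples (log2 fold change 0.26 ± 0.15, 95% interval −0.06 to 0.58). With the replicate number as a block its unadjusted p was 0.0101 and its edgeR adjusted p 0.630. In that fit 2 members (Txnip and Bnip3) and 759 of all 14159 genes had an unadjusted p under 0.05, beside 453 genes without the block. Bnip3 stood at 99.1, 99.1, 96.2 and 128 CPM in KO hearts, against 83.9, 92.9, 90.3 and 97.6 CPM in WT hearts (log2 fold change 0.21 ± 0.10, 95% interval −0.01 to 0.43). The KO values were mostly above the WT values, with 1 KO library just below the highest WT library, and the block gave an unadjusted p of 0.0211 and an edgeR adjusted p of 0.793. In Txnip, Bnip3, Foxo1, Foxo4 and Gabarapl1 each KO heart lay above the WT heart of the same number. Some of these gaps were very small, as for Foxo4 in hearts 4 (61.33 against 61.24 CPM). The share of all genes with this order was not counted, so it is a description of these values only. Sesn1 (97.8 to 135 CPM in KO, 100.1 to 123 CPM in WT) had a log2 fold change of 0.11 ± 0.11, and Gabarapl1 (111 to 144 CPM in KO, 99.7 to 128 CPM in WT) one of 0.12 ± 0.11.

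**Figure D3:**
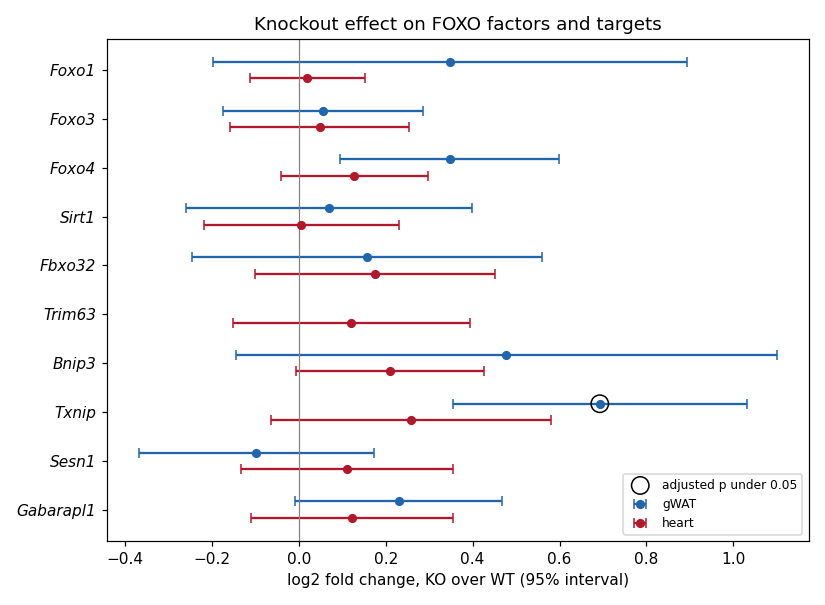
Log2 fold change of KO over WT (points) with its 95% interval (bars) from edgeR for each gene in gWAT (blue, n = 3 each) and heart (red, n = 4 each), with a ring where the adjusted p is under 0.05. Txnip in gWAT, at 0.69, is the 1 ringed gene, and Trim63 has no gWAT value.

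The KO effects in gWAT and heart were then set against each other in a fit of all 14 libraries. None of the 10 genes had an effect that differed between the tissues by the edgeR test, beside 1.15% of all 16014 genes, and 0 had an unadjusted p under 0.05, beside 15.2%. For Txnip the gWAT effect minus the heart effect was 0.43 ± 0.22 on the log2 scale (95% interval −0.04 to 0.90, edgeR adjusted p = 0.380). Its call in gWAT alone therefore does not show a difference from heart. Without WT gWAT 1, 2 members passed by edgeR, Foxo1 with a difference of 0.64 (adjusted p = 0.0365) and Bnip3 with 0.68 (adjusted p = 0.0336), while the genes called over all numbered 1315 of 16375, against 184 of 16014 with every library.

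Between the tissues of WT mice, 9 of the 10 genes differed, beside 70.5% of all genes. Of all genes, 33.9% were higher and 36.6% lower in heart. Higher in heart were Foxo3 (log2 of heart over gWAT 1.03 ± 0.10), Foxo4 (0.83 ± 0.10), Sirt1 (0.61 ± 0.12), Sesn1 (1.23 ± 0.12), Fbxo32 (3.12 ± 0.17) and Trim63. Lower in heart were Foxo1 (−1.25 ± 0.18), Bnip3 (−0.86 ± 0.21) and Gabarapl1 (−0.41 ± 0.11). All 9 had an edgeR adjusted p of at most 0.00367. Txnip did not pass (−0.13 ± 0.16, edgeR adjusted p = 0.459). Scaling to library totals alone moved the median log2 ratio of all genes to −0.606, beside −0.0324 in the scaled fit. Sirt1 was then at 0.04 and no longer called (edgeR adjusted p = 0.779), and Txnip was at −0.71 and called as lower in heart (edgeR adjusted p = 0.000439).

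Trim63 showed the widest gap. WT hearts held 5697 reads in all against 1 read in WT gWAT, a ratio of 7732 after scaling (exact 95% interval 1387 to 305438), and KO hearts held 6077 reads against 2 in KO gWAT, a ratio of 4172 (1154 to 34456). These intervals cover counting error only. Its ubiquitin ligase partner in muscle atrophy, Fbxo32, was 8.71-fold higher in WT hearts than in WT gWAT and was detected in every gWAT library.

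Levels of different genes were compared per kilobase of exon, as RPKM scaled over all 14 libraries. Txnip was the most abundant member in each group, at 287 ± 48.8 RPKM in KO hearts, 239 ± 42.6 RPKM in WT hearts, 424 ± 37.3 RPKM in KO gWAT and 262 ± 29.4 RPKM in WT gWAT (SD). The order of its groups was KO gWAT, KO heart, WT gWAT and WT heart, and neighbours among the last 3 of these differed by less than 1 SD. Sirt1 was among the least abundant in each group, at 4.06 ± 0.496 RPKM in KO hearts, 4.03 ± 0.245 RPKM in WT hearts, 2.77 ± 0.411 RPKM in KO gWAT and 2.64 ± 0.242 RPKM in WT gWAT. In Foxo3, Foxo4, Fbxo32, Trim63, Sirt1 and Sesn1 both heart groups lay above both gWAT groups. In Foxo1, Bnip3 and Gabarapl1 both gWAT groups lay above both heart groups. Within a tissue, the KO and WT means of Foxo1, Foxo3, Sirt1, Bnip3, Sesn1 and Fbxo32 were within 1 SD of the more variable group in both tissues.

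The balance among the FOXO genes differed between heart and gWAT. Foxo1 made up 11.4 ± 0.226% of the summed RPKM of Foxo1, Foxo3 and Foxo4 in KO hearts and 11.9 ± 0.519% in WT hearts (SD, n = 4 each). In gWAT it made up 39.3 ± 5.35% in KO and 37.0 ± 6.92% in WT (n = 3 each). Foxo4 had the highest share in heart, 50.01 ± 3.66% in KO and 48.5 ± 3.04% in WT, and had 38.5 ± 5.08% in KO gWAT and 36.6 ± 2.42% in WT gWAT. Foxo3 had 38.6 ± 3.74% in KO hearts and 39.6 ± 2.83% in WT hearts, and 22.3 ± 0.322% in KO gWAT and 26.4 ± 5.15% in WT gWAT. The KO and WT ranges of each share overlapped in gWAT and heart alike.

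**Figure D4:**
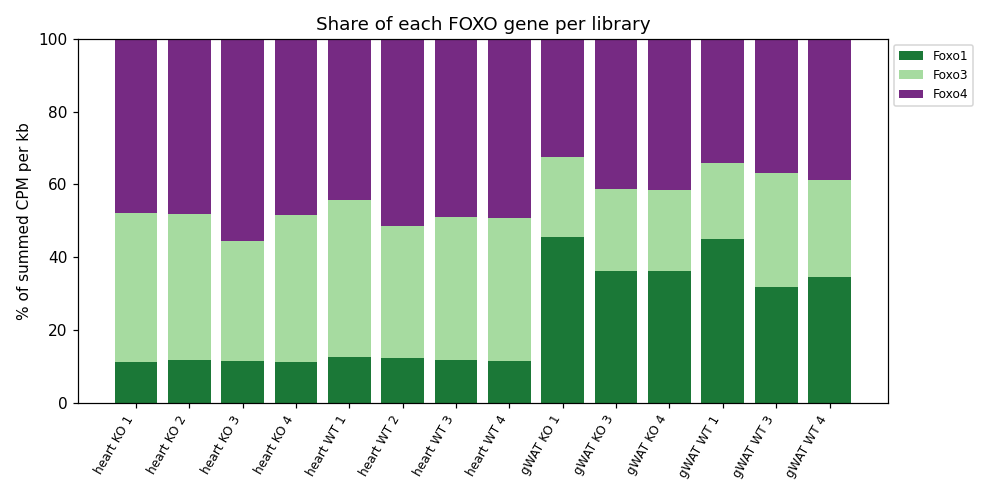
Share of Foxo1, Foxo3 and Foxo4 in their summed level per kilobase of exon (vertical axis, %) in each of the 14 libraries. Foxo1 takes 11.1 to 12.5% in the 8 heart libraries and 31.8 to 45.4% in the 6 gWAT libraries, and Foxo4 the largest part in heart.

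A further 108 genes of the pathway, in 7 lists of upstream signalling, FOXO modifiers and other targets, were examined next, and 106 were tested in each tissue. In gWAT 2 were higher in KO (Irs1 and Pck1) and 2 lower (Hmox1 and Ctsl), beside 2.01% of all genes called higher and 3.48% called lower. The median log2 fold change of the 106 was 0.02, and 57 lay above 0. In heart 0 of 106 were called by edgeR or DESeq2, with 5 at an unadjusted p under 0.05 by edgeR. The gWAT count was 24 without WT gWAT 1, 2 without WT gWAT 3 and 0 without each of the other 4 libraries, and it was 12 with DESeq2. All genes called numbered 2908 of 15578 without WT gWAT 1 and 1769 of 15200 with DESeq2, so these counts grew together with those over all genes.

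Upstream of the FOXO factors, 1 of 13 insulin and AKT signalling genes passed in gWAT. Irs1, the insulin receptor substrate, stood at 44.2, 49.5 and 64.3 CPM in KO samples, against 27.4, 27.5 and 27.0 CPM in WT samples, and rose by 0.95 ± 0.15 on the log2 scale (edgeR adjusted p = 0.0236). The KO samples all lay above the WT samples, which were close together. Igf1r (0.48 ± 0.13, edgeR adjusted p = 0.0713), Pik3r1 (0.51 ± 0.18, adjusted p = 0.139) and the pseudokinase gene Trib1 (−0.35 ± 0.11, adjusted p = 0.114) did not pass. In the list of FOXO modifiers and partners, 0 of 21 passed. Its smallest p belonged to Foxo6, the fourth FOXO gene, at 0.902 to 1.67 CPM in KO and 0.485 to 0.690 CPM in WT (1.23 ± 0.37, edgeR adjusted p = 0.0896), followed by the ubiquitin ligase gene Skp2 (−0.996 ± 0.33, adjusted p = 0.120) and the mitochondrial sirtuin gene Sirt3 (0.39 ± 0.14, adjusted p = 0.135).

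Among the metabolic targets, 1 of 13 tested genes rose and 1 fell in gWAT, and G6pc and Igfbp1 were not tested. Pck1, the cytosolic PEP carboxykinase that feeds glyceroneogenesis in fat, stood at 2253, 2094 and 1921 CPM in KO samples, against 809, 574 and 619 CPM in WT samples (1.65 ± 0.17, edgeR adjusted p = 0.0154). Hmox1, heme oxygenase 1, which is also abundant in macrophages, stood at 56.1, 48.8 and 57.2 CPM in KO samples, against 119.8, 129 and 125 CPM in WT samples (−1.20 ± 0.10, edgeR adjusted p = 0.0101). In both genes the KO and WT groups stood well apart, WT sample 1 included. Hmox1 in heart was at −0.97 ± 0.33 (edgeR unadjusted p = 0.0133, adjusted p = 0.9997). Its gWAT effect minus its heart effect was −0.23 ± 0.40 (edgeR adjusted p = 0.844). The adipocyte genes Adipoq (0.78 ± 0.20, edgeR adjusted p = 0.0587) and Pnpla2, which encodes the triglyceride lipase ATGL (0.49 ± 0.15, adjusted p = 0.0879), did not pass.

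Of 18 autophagy and mitophagy targets beside Bnip3 and Gabarapl1, 1 fell in gWAT. Ctsl, the lysosomal protease cathepsin L, stood at 757, 803 and 819 CPM in KO samples, against 1293, 1994 and 1844 CPM in WT samples (−1.11 ± 0.18, edgeR adjusted p = 0.0253). WT sample 1 was again the WT sample nearest to the KO samples. Pink1, a kinase of mitophagy (0.58 ± 0.14, edgeR adjusted p = 0.0569), Tfeb, a factor for lysosomal genes (−0.71 ± 0.21, adjusted p = 0.0848), and Sqstm1, the autophagy receptor p62 (−0.37 ± 0.11, adjusted p = 0.0930), did not pass. Macrophage markers were lower in the same KO libraries, as given above, and their part in the Ctsl and Hmox1 differences was not tested.

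In gWAT 0 of 25 tested genes of cell cycle, stress and death passed. The smallest p values there belonged to the cell cycle inhibitor gene Cdkn1a (−0.41 ± 0.14, edgeR adjusted p = 0.125), Gadd45b (−0.72 ± 0.26, adjusted p = 0.143) and the BIM gene Bcl2l11 (−0.49 ± 0.20, adjusted p = 0.186). Likewise 0 of 7 other atrophy ligases and partners passed, with Fbxo21 nearest (0.65 ± 0.21, edgeR adjusted p = 0.108). Beside Txnip, 0 of 9 genes of the thioredoxin system passed: the thioredoxin genes Txn1 (−0.14 ± 0.13) and Txn2 (0.12 ± 0.10) and the reductase gene Txnrd1 (−0.38 ± 0.12) had edgeR adjusted p of 0.565, 0.540 and 0.108. Arrdc3, a gene of the same alpha-arrestin family as Txnip, was at 0.50 ± 0.25 (edgeR adjusted p = 0.277).

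**Figure D5:**
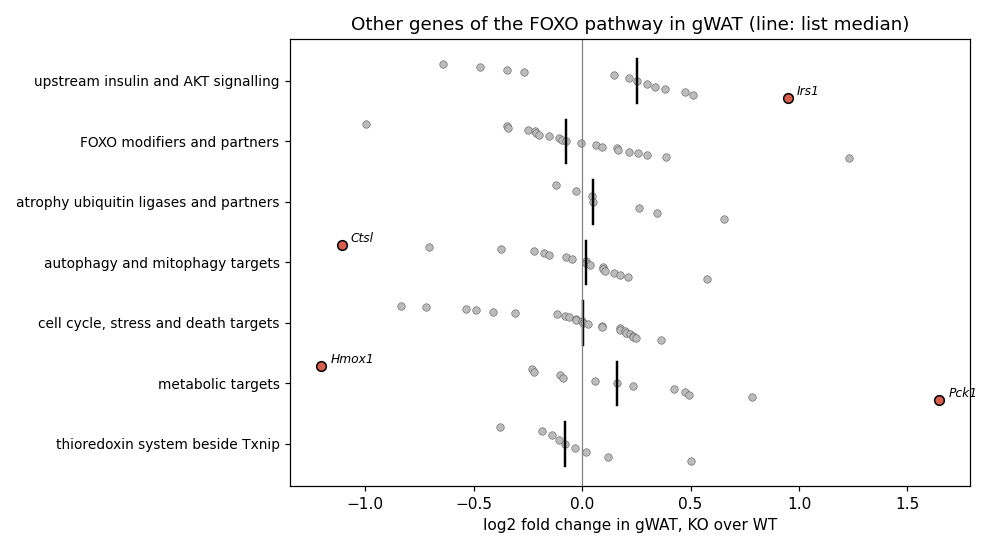
Log2 fold change of KO over WT in gWAT (horizontal axis) for the 106 tested genes of the 7 pathway lists, 1 point per gene, with a black line at each list's median and red points for an edgeR adjusted p under 0.05. The 4 red points are Irs1 and Pck1 (higher) and Hmox1 and Ctsl (lower), and the list medians lie between −0.08 and 0.25.

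The genes whose levels moved most like each FOXO gene were sought by Pearson correlation of log2 CPM over the 14 libraries after the mean of each group was taken off, among 9437 genes. For Foxo1 these were Ppa1 (r = 0.945), Lpin1 (0.945) and Mylk (0.940). For Foxo3 they were Adprh, Gpi1 and Tbca (0.866, 0.866 and 0.864), and for Foxo4 Spop, Kansl2 and Gm6206 (0.932, 0.912 and 0.911). Within the set, the pairs with r furthest from 0 were Foxo3 and Sesn1 (0.771), Foxo3 and Foxo4 (−0.671) and Foxo1 and Bnip3 (0.640), and they are named for that reason. Foxo4 and Bnip3 followed (0.602). The other pairs of a FOXO gene and a target went both ways, from 0.429 for Foxo3 and Txnip down to −0.563 for Foxo4 and Sesn1. The libraries share depth and tissue composition, among them the WT gWAT 1 library that stood high in both Foxo1 and Bnip3, so these values are descriptions.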

How the data were processed

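mRNA libraries were made from Trizol-extracted, flash-frozen tissue with the Kapa mRNA HyperPrep kit, per the labels' protocols. The authors deposited raw counts for each Ensembl gene and library, without normalization. Trimmomatic 0.32, HISAT2 2.1.0, HTSeq 0.11.0, FastQC, Picard, limma and the mouse build mm10 (GRCm38) are named, per the submitters' processing notes. The strand setting and the annotation release were not given in the sources used here. The exons of 6 of the 10 genes overlap an antisense gene. Of these, 5 antisense genes were in the table and held at most 1.20% of the member's reads in any library. The members and lists were chosen with earlier results of these data known.

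Counts were filtered with filterByExpr, scaled with TMM and tested in R 4.3.3 with edgeR 4.0.16 (glmQLFit and glmQLFTest) within each tissue, or over all 14 libraries for the comparisons between tissues, with Benjamini-Hochberg adjustment at 0.05. The SE is the size of the log2 fold change divided by the square root of F, and 95% intervals use the moderated degrees of freedom. Trim63 did not pass the filter in gWAT. Between libraries, the coefficient of biological variation came to 0.168 (gWAT) and 0.149 (heart). The fits were also run on simulated counts, in which the planted changes were larger than any KO effect of a member. That run therefore does not show how well effects of the members' size are found. No 2 libraries of a group were duplicates (chi-square per degree of freedom at least 3.74 over 18 pairs). The ratio of summed Trim63 reads has an exact conditional interval.

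Gene coordinates and exon lengths are from GENCODE M21 on GRCm38, and promoters from RefSeq on GRCm38.p6. The replicate numbers come from the labels. In heart, libraries with the same number deviated from their group means together (r = 0.258 to 0.374 over 4 pairs). The block values quoted for heart use these numbers, and the main heart test does not. Different-numbered WT and KO hearts within numbers 1 and 2 or within 3 and 4 also had positive r (0.172 to 0.465), and those across these sets had negative r (−0.446 to −0.172), so the number cannot be told apart from the atrial split. The rule for named genes took all 10 members, up to 4 genes of each pathway list with the smallest gWAT p and up to 2 with the smallest heart p, and the 3 genes most like each FOXO gene with a mean log2 CPM above 3. Genes that it took and that are not named are not reported here. Alternatives were RLE scaling, library totals, no filter beyond 1 count, a mean count of 10, DESeq2 1.42.0, limma-voom 3.58.1, 1 fit of all libraries, the replicate block, an atrial covariate in heart and leaving out each library. Their use for the called pathway genes was added after the data were seen. Figures used matplotlib 3.10.9 and pandas 2.3.3 in Python 3.11.15.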

Additional observations from a re-analysis of the deposited data

Results flagged for a closer look

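Each member was checked in the 2 heart groups for a library whose gap to the nearest other library exceeded Dixon's 95% critical value, 20 groups of 4 in all; chance flags about 1 in 20 such groups. Bnip3 was at 128 CPM (127.5) in KO heart 4, above 96.2 to 99.1 CPM in the other KO hearts. Sesn1 was at 97.8 CPM in KO heart 3, below 131 to 135 CPM in the other KO hearts. Foxo4 was at 52.3 CPM in WT heart 1, below 60.5 to 61.2 CPM in the other WT hearts.

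In the pathway lists, 2 genes had a KO effect that differed between gWAT and heart by the interaction test of edgeR. For Irs1 the gWAT effect minus the heart effect was 1.09 on the log2 scale (adjusted p = 0.0269): it was 0.95 ± 0.15 in gWAT and −0.14 ± 0.13 in heart. For Ctsl the difference was −1.21 (edgeR adjusted p = 0.0167): its effect was −1.11 ± 0.18 in gWAT and 0.11 ± 0.09 in heart. Over the 14 fits without 1 library, Ctsl kept its call in 12, with differences of −1.36 to −1.10, and lost it without WT gWAT 4 (edgeR adjusted p = 0.0707) and without KO gWAT 4 (edgeR adjusted p = 0.0535). Irs1 kept its call in 6, with differences of 0.93 to 1.20, and the highest edgeR adjusted p over the 14 fits was 0.0862.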

How the results depend on the processing

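In gWAT, 1 member (Txnip) was called by edgeR. The count was 0 with the replicate block, 2 in 1 fit of all 14 libraries (Foxo4 added, adjusted p = 0.0407) and 0 to 4 with 1 library left out, and 1 under all other alternatives run (scaling, filters, DESeq2, limma-voom). With the replicate block Txnip was at 0.69 with an edgeR adjusted p of 0.109. Same-numbered gWAT libraries did not deviate together (r = −0.218 to 0.0291 over 3 pairs), so the numbers were not taken as pairs there. Over all genes the gWAT count, 834, was 1600 without the filter, 1769 with DESeq2, 477 with limma-voom, 1725 in 1 fit, 0 with the block (2922 at an unadjusted p under 0.05) and 0 to 2908 with 1 library left out. In heart, 0 members were called under every alternative run, and the block changed no call of a member there or between tissues. The atrial covariate gave 6 calls over all genes in heart, beside 1, Hmox1 of the pathway genes among them. The number of pathway genes called in gWAT, 4, was 5 with library totals, 8 without the filter, 11 in 1 fit of all libraries and 0 with the block. Pck1 was not among the 11 (1.64, edgeR adjusted p = 0.0659). For the interaction, the count of members was 0 except without WT gWAT 1 (0 to 2 over the fits with 1 library left out), and over all genes it was 533 without the filter, 669 with DESeq2, 69 with limma-voom and 3 to 1315 with 1 library left out, beside 184. Between tissues in WT, 9 members were called under every alternative run, and with library totals 1 call (Sirt1) was replaced by another (Txnip).

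Effects that changed sign were near 0 in the main fits, at −0.017 to 0.069, and the cause was not tested. Some of the other fits moved them further from 0. Sirt1 in heart was −0.00369 with limma-voom and −0.0517 to 0.0803 with 1 library left out. Foxo3 in heart was −0.00304 to 0.128 and Sirt1 in gWAT −0.00272 to 0.191 with 1 library left out. In the interaction, library totals gave −0.0949 for Foxo3 and −0.0248 for Sirt1, and Fbxo32 was 0.000591 without the filter. With 1 library left out, interaction values were −0.0704 to 0.0600 for Foxo3, −0.0177 to 0.180 for Sirt1 and −0.147 to 0.199 for Fbxo32. Depth limits Trim63 in gWAT, where 3 reads in 6 libraries allow no test of genotype.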
